A study of Arabidopsis thaliana with 4 samples.

Results

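Calmodulin-like (CML) proteins are small calcium sensors of plants. The members described here are the probe sets annotated to exactly 1 gene whose symbol is a calcium sensor or MAP kinase cascade name (CPK, CDPK, CIPK, CBL, CML, CAM, MPK, MKK, MAPKKK or MKKK) followed by a digit. This rule found 7 of 22810 probe sets, and all 7 belonged to the CML family: CML23, CML30, CML37, CML38, CML41, CML42 and CML43. For the other families of the rule, the RefSeq annotation of TAIR10.1 holds 113 genes with such symbols, and none of them was paired with a probe set in the annotation used, so they were not analysed here. The set is therefore called the calmodulin-like genes below, and it gives no view of MAP kinase cascades beyond the few genes named at the end.

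The samples were whole 10-day-old Arabidopsis thaliana plants of ecotype ws-2, grown on agar with Murashige and Skoog medium. The 4 groups were the wild type (WS) without abscisic acid (ABA), WS treated with 100 µM ABA for 3 h, the line gpa1 without ABA and gpa1 treated in the same way. Each group was 1 Affymetrix ATH1 array from a pool of 10 plants, so no group had a replicate. The labels describe gpa1 as a T-DNA insertion line of the same ecotype from a separate seed stock, and the sources used here do not say how the control plants were handled.

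Calcium is a second messenger in plant cells, where drought, cold, wounding, pathogens and hormones such as ABA each raise its concentration in the cytosol. EF-hand proteins bind the calcium and pass the signal on. Calmodulin and the CML proteins do so by binding other proteins, while calcium-dependent protein kinases carry the sensor and the kinase in the same chain. GPA1 encodes the G protein alpha subunit of Arabidopsis, which takes part in ABA and calcium signalling of guard cells.

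The values are linear probe-set intensities, whose trimmed mean was the same on every array as deposited. An intensity at or below 19.2, the 30th percentile over all arrays, is treated as a floor, and a fold against the floor is a lower bound, written as "at least". Levels of different genes are not compared, because probe sets differ in brightness. As a check of the treatment, all 6 measured genes of the 15 on the ABA marker list were called higher with ABA by limma. Of all tested probe sets 17.1% were called higher. The list was chosen with earlier results of these data known, so this check is not independent of them. LTI30, a dehydrin, read 80.9 and 3139 in WS and 92.7 and 2916 in gpa1, without and with ABA. The labels place the insertion in At3g26300, which the annotation names CYP71B34, and its intensity was 105 and 122 in WS and 117 and 105 in gpa1, without and with ABA. Its genotype difference did not pass in limma (log2 difference -0.03, adjusted p 0.993), and since the position of its probes relative to the insertion is unknown, this checks nothing. No probe set was named GPA1, so that gene was not analysed here. The shoot markers (4 of 9 measured) summed to intensities from 9899 to 14300 on the 4 arrays, the root markers (3 of 9) to 2329 to 3311 and the guard cell markers (2 of 7) to 27.9 to 57.7. The shoot and root sums were lowest in WS ABA and highest in WS control, and so was the sum of the 2 measured housekeeping genes (2163 and 3403). Such sums are carried by the brightest probe sets. The housekeeping gene PEX4 (UBC21) went the other way in WS, with 201 without and 229 with ABA. So did the shoot marker LHCB4.3, with 125 and 171, which was called higher with ABA (limma, adjusted p of 0.0238). The other measured genes of these 3 lists fell in WS. The part of these shifts in the results below was not tested.

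The first comparison asks which calmodulin-like genes changed with ABA. By the test, CML38 and CML23 rose with ABA and CML42 fell, while CML41 and CML43 did not pass. CML38 and CML23 passed the filter on dim probe sets through their ABA arrays, so their passing is itself no sign of a change, while CML42 was well above the floor on all arrays. CML37 was below the floor on both control arrays and above it on both ABA arrays. Both CML37 and CML30 were too dim on average for the main test. Averaged over the genotypes, 2 of the 5 tested members were called higher, against a background of 17.1% of all tested probe sets. In the other direction 1 of 5 was called lower, against 25.7%. Over all tested probe sets 39.9% of the calls were higher with ABA, and 55.6% with each array centred on its median, where the background shares were 21.0% higher and 16.7% lower. Counts over 5 genes, some of them chosen by the filter through the group where they are high, give no ground for a statement on the family. The test was limma on all 4 arrays with genotype in the model, which takes the genotypes as stand-ins for replicates and assumes that both respond alike.

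**Figure D1:**
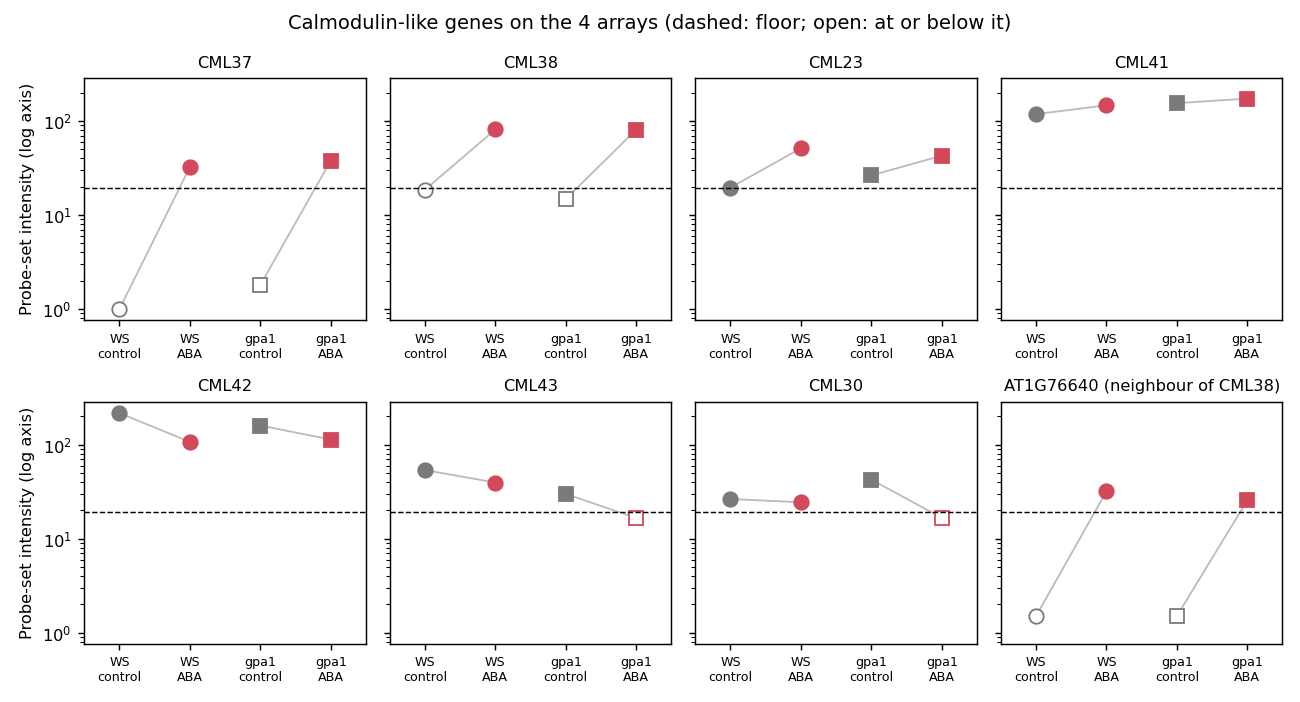
Probe-set intensity (log axis) of the 7 calmodulin-like genes and of AT1G76640, the neighbour of CML38, on each of the 4 arrays. Circles are WS and squares gpa1, grey without and red with ABA, each symbol is 1 array, grey lines join the arrays of a genotype, the dashed line is the floor of 19.2 and open symbols lie at or below it. CML37, CML38 and AT1G76640 are open on both control arrays and filled on both ABA arrays.

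CML38, a calcium sensor known from wounding and low-oxygen responses, had an intensity of 18.6 without and 81.3 with ABA in WS, and of 14.8 without and 81.1 with ABA in gpa1. Both control arrays lay below the floor and both ABA arrays well above it. In whole plants, a change in the number of cells that express a gene and a change in RNA per cell cannot be told apart. It was at least 4.23-fold higher with ABA in WS and 4.22-fold or more in gpa1. Averaged over both genotypes, the log2 change was 2.08 ± 0.26 (SE; limma, adjusted p of 1.43e-12). Both controls were raised to the same floor, so the size of this change and the closeness of the responses are set by the floor. A floor at the 15th percentile gave an averaged change of 2.29, one at the 45th gave 1.13, and both were called. Against the lower of these floors, an intensity of 5.60, all 4 values of CML38 lay above it, and CML38 was 4.37-fold higher with ABA in WS and 5.48-fold higher in gpa1.

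CML37, a relative of CML38 known to be induced by wounding and herbivory, had an intensity of 1.0 in WS control and 32.3 in WS ABA. In gpa1 it read 1.8 without ABA and 37.8 with ABA. As for CML38, both controls were at the floor and both ABA arrays above it. The ABA values were themselves close to the floor, so CML37 was at least 1.68-fold higher with ABA in WS, and the bound in gpa1 was 1.97-fold. Against the lower floor of 5.60 the bounds were 5.77-fold and 6.75-fold. CML37 was too dim on average for the main test. It is described here by its values alone, without a test.

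AT1G76640 is not a member by its symbol, but RefSeq lists it as calmodulin like 39 and places it directly beside CML38. RefSeq also gives the name CML39 as a synonym of CML37, so the locus is used here. It read 1.5 without and 31.9 with ABA in WS, and 1.5 without and 25.6 with ABA in gpa1. It was thus below the floor without ABA and above it with ABA in both genotypes, with bounds of at least 1.66-fold for WS and 1.33-fold for gpa1. It was too dim for the main test and is given without one. The gene on the other side of CML38, AT1G76660, did not show this order and read 15.6 and 12.5 in WS and 23.3 and 14.4 in gpa1, without and with ABA. Of the 14 genes directly beside the 7 members, 11 had a probe set and 5 were tested. Limma called none of the 5 with ABA at an adjusted p under 0.05, while 2 had an unadjusted p under 0.05. Of all tested probe sets 17.1% were called higher and 25.7% lower at the adjusted p, and the share at the unadjusted p is not given here. With so few genes this count shows no contrast to the members.

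CML23, a calcium sensor known to act together with its close relative CML24 in flowering time, had an intensity of 19.6 without and 51.3 with ABA in WS. The values in gpa1 were 26.4 without and 42.8 with ABA. Both ABA arrays were above both control arrays, and the WS control value lay just above the floor. CML23 was 2.62-fold higher with ABA in WS, and in gpa1 it was 1.62-fold higher. Over both genotypes the log2 change was 1.04 ± 0.27 (SE; limma, adjusted p of 0.000561). The call was lost with the floor at the 45th percentile, where the averaged change was 0.33 and the adjusted p 0.151. With genotype left out of the model it was also lost without WS control (0.118), without WS ABA (0.110) and without gpa1 ABA (adjusted p of 0.0792).

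CML42, known to act in trichome branching and as a brake on jasmonate-dependent defence, was the tested member with the lowest averaged change. In WS it read 217 without and 107 with ABA, and in gpa1 it read 160 without and 114 with ABA. Both control arrays were above both ABA arrays, and none was near the floor. With ABA it was 2.02-fold lower in WS, and in gpa1 1.41-fold lower. The averaged change was -0.76 ± 0.17 (SE), with a limma adjusted p of 5.12e-05. All tested probe sets had a median change of -0.16, so relative to it the change of CML42 was -0.60, and with each array centred on its median the call held at -0.61 (adjusted p of 0.00149). With genotype left out of the model, the call was lost without WS control, without WS ABA and without gpa1 ABA, with adjusted p-values of 0.155, 0.154 and 0.131.

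CML41, known from callose closure of plasmodesmata during bacterial defence, read 118.5 without and 147 with ABA in WS, and 155 without and 173 with ABA in gpa1. WS ABA lay below gpa1 control, so the ABA and control arrays overlapped across genotypes, while within each genotype CML41 was higher with ABA. The averaged change of 0.24 ± 0.16 (SE) did not pass, with a limma adjusted p of 0.245, and its 95% interval ran from -0.09 to 0.56. CML43, known to be induced in defence against bacteria, read 53.8, 39.6, 30.0 and 16.6 in the order WS control, WS ABA, gpa1 control and gpa1 ABA. WS ABA lay above gpa1 control, so here too the treatments overlapped across genotypes, while within each genotype CML43 was lower with ABA. Its averaged ABA change of -0.54 ± 0.26 (SE) did not pass either, by limma (adjusted p of 0.0863). With a variance that does not depend on intensity it did pass, with an adjusted p of 0.0329.

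CML30, known as a mitochondrial member of the family, had an intensity of 26.5 without and 24.4 with ABA in WS. The values in gpa1 were 42.6 without and 16.7 with ABA. The gpa1 control array was the highest and the gpa1 ABA array, below the floor, the lowest. With ABA it was 1.09-fold lower in WS and at least 2.22-fold lower in gpa1. It was too dim for the main test. When only probe sets at the floor on all 4 arrays were left out of the test, a choice made after the values were seen, its averaged change was -0.63 ± 0.24 (SE), with a limma adjusted p of 0.0229. That change depends on the floor under the gpa1 ABA value.

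The responses of the genotypes taken singly rest on 1 array against 1 array and have no replicate check. In WS, 2 of the 5 tested members were at least 2-fold higher with ABA (CML38 and CML23), against 8.61% of all tested probe sets, and 1 was at least 2-fold lower (CML42), against 6.73%. In gpa1, 1 was at least 2-fold higher (CML38), against 7.84%, and none was 2-fold lower, against 6.88%. The median over the 5 was 0.31 in WS and 0.16 in gpa1 on the log2 scale, and over all tested probe sets it was -0.16 in both. All 7 members, the untested CML37 and CML30 included, had the same sign of change in both genotypes, as did 78.5% of all tested probe sets. For CML37 and CML38 both controls were at the floor, so a fall could not have been seen.

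**Figure D2:**
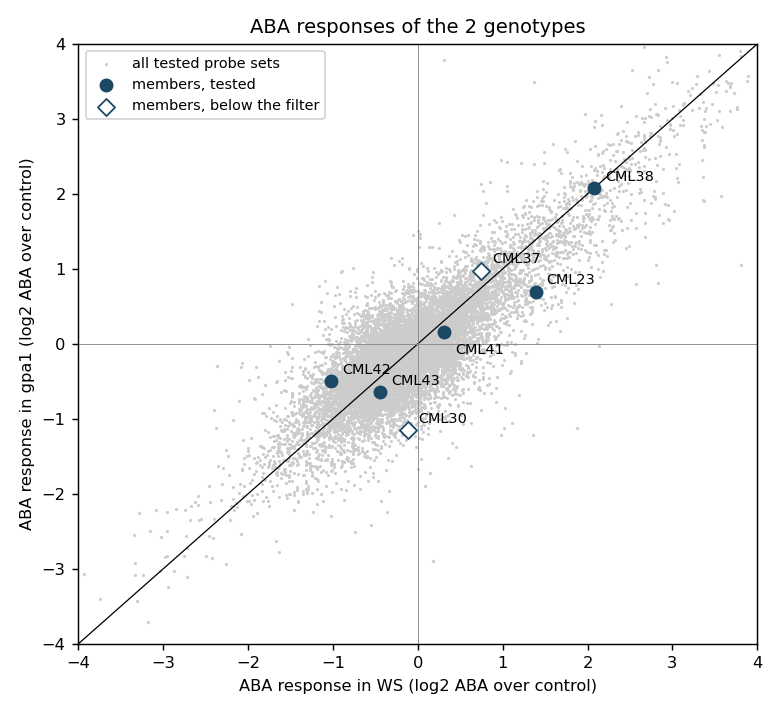
ABA response in WS (x axis) against that in gpa1 (y axis), both as log2 of ABA over control after the floor. Grey dots are all tested probe sets, of which 48 lie outside the axes, filled circles are the 5 tested calmodulin-like genes, open diamonds the 2 too dim to be tested, and the black diagonal marks equal responses. CML38 lies at 2.08 in both genotypes, where both values are bounds, CML23 at 1.39 in WS and 0.70 in gpa1, and CML30 at -0.12 in WS and -1.15 in gpa1, where its value is a bound.

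The second comparison asks how far the ABA responses of the genotypes differed. With 1 array per group the difference could not be tested. No tested member reached a 2-fold difference, against 1.36% of all tested probe sets with gpa1 above WS and 1.68% with gpa1 below WS. Subtracting the WS response from that of gpa1 gave -0.69 for CML23, 0.52 for CML42 and -0.15 for CML41 on the log2 scale. For CML43 it gave -0.20, a value set by the floor under gpa1 ABA: the lower floor gave -0.41 and a floor at the 45th percentile 0.44. For CML38 and CML37 both controls were at the floor, so a difference of their responses was not measured. CML30, not tested, had -1.03, and since gpa1 ABA was at the floor its size is a lower bound. The difference contrasts WS control and gpa1 ABA with WS ABA and gpa1 control. In the same contrast the 9 spike-in control probe sets had 1.35 and the 25S ribosomal RNA probe set 1.44, both larger in size than any value measured for a member, and their part in these values was not tested.

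The remaining comparison is of the genotypes: which calmodulin-like genes differed between gpa1 and WS under either treatment. CML43 was called lower in gpa1, and no other tested member passed. CML43 passed the filter on dim probe sets through its WS arrays, where it was brighter, so its passing is itself no sign of a difference. Its intensity was 53.8 in WS against 30.0 in gpa1 without ABA, and 39.6 against 16.6 with ABA. Both gpa1 arrays were below both WS arrays. Without ABA it was 1.79-fold lower in gpa1, and with ABA, where gpa1 was at the floor, at least 2.06-fold lower. Over both treatments the log2 difference was -0.94 ± 0.26 (SE; limma, adjusted p of 0.0204). Genotype and seed stock are the same arrays and cannot be told apart. The call was lost with the floor at the 45th percentile, where the difference was -0.31 and the limma adjusted p 0.624. It was also lost in every fit with treatment left out of the model. Those fits leave the ABA response in the error, so they cannot decide on this call.

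By count, 1 of 5 tested members was called lower in gpa1, against 1.48% of all tested probe sets, and 0 of 5 higher, against 1.42%, by limma at an adjusted p under 0.05. At an unadjusted p under 0.05 the counts were also 1 and 0, but the share of all tested probe sets at that threshold is not given here. CML41 was 1.31-fold higher in gpa1 without ABA and 1.18-fold higher with ABA. Its averaged difference of 0.31 ± 0.16 (SE) had a limma adjusted p of 0.472. CML23 had 0.08 with a 95% interval from -0.44 to 0.61, and CML42 -0.18 with one from -0.50 to 0.15. Both intervals include 0, and genotype differences of any size within them remain possible. For CML38 both controls were at the floor, so a genotype difference without ABA was not measured. Among single comparisons, no tested member differed 2-fold without ABA, against 0.601% higher and 0.542% lower of all tested probe sets. With ABA, CML43 was at least 2-fold lower, against 1.11%, and none was higher, against 0.652%.

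**Figure D3:**
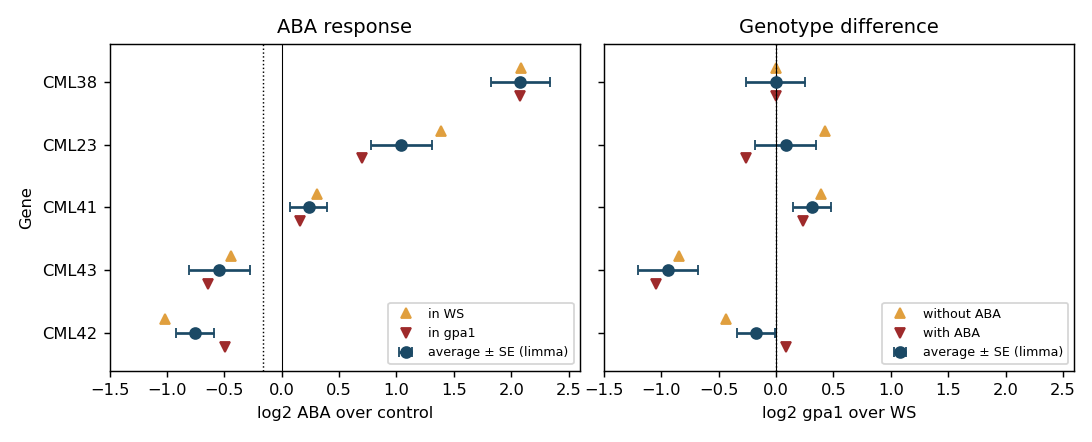
Averaged ABA response (left, log2 ABA over control) and averaged genotype difference (right, log2 gpa1 over WS) of the 5 tested calmodulin-like genes. Circles with bars are the limma estimate ± SE, triangles the single comparisons named in each legend, and the dotted line is the median over all tested probe sets (-0.16 for ABA and 0.00 for genotype). The ABA estimates run from 2.08 for CML38 to -0.76 for CML42, and the lowest genotype estimate is -0.94 for CML43. The values of CML38 rest on the floor under both controls, and those of CML43 on the floor under gpa1 ABA.

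Few other genes of the pathway could be read. ATMPK8, a MAP kinase whose symbol carries the prefix AT and so lies outside the rule, had intensities of 99.6, 95.7, 103 and 113 in WS control, WS ABA, gpa1 control and gpa1 ABA. Its averaged ABA change was 0.03 ± 0.19 (SE), with a 95% interval from -0.34 to 0.40 and a limma adjusted p of 0.906. ATMPK13, another MAP kinase, was below the floor on all 4 arrays, at 1.5 to 3.6. Of a list of 66 calcium channels, pumps and exchangers, 8 had a named probe set, all of them glutamate receptor-like channels (GLR), and 4 were tested. None of the 4 passed with ABA at an adjusted or an unadjusted p under 0.05 by limma, with averaged changes from -0.46 to 0.01 and a median of -0.30. At the adjusted p 17.1% of all tested probe sets were called higher and 25.7% lower, so 4 genes give no ground for a statement on the list.

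Of 37 other genes of MAP kinase cascades, 4 had a named probe set and 2 were tested, WNK9 and AT1G67890. Neither passed at an adjusted or an unadjusted p under 0.05 by limma, with averaged changes of 0.28 and -0.05. The shares of all tested probe sets called at the adjusted p were 17.1% higher and 25.7% lower. Of 50 substrates and partners, 2 had a named probe set and 1 was tested. This was WRKY22, a transcription factor downstream of a defence MAP kinase cascade, with 68.0, 36.5, 51.6 and 41.9 in WS control, WS ABA, gpa1 control and gpa1 ABA. It fell with ABA by 0.60 on the log2 scale on average, with a limma adjusted p of 0.0400. The call held in 3 of 12 alternatives and was lost in 9, among them median centring, quantile normalization, treatment alone in the model and each fit with 1 array left out (adjusted p from 0.0119 to 0.434 over the 12). The lists of MAP kinase phosphatases, of other calcium-regulated or SnRK kinases, and of clade A PP2C phosphatases with ABA receptors had no named probe set and were not analysed here.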

How the data were processed

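Affymetrix ATH1 arrays of 4 groups, 1 array each, were analysed. The authors deposited linear intensities per probe set, and from the values each array had a 2%-trimmed mean of 100.0. The sources used here do not give the summarising program. Detection calls were not used, and the precision is limited by having 4 arrays.

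The 64 control probe sets were left out. Intensities were raised to a floor at the 30th percentile (19.2) and taken to log2. A probe set was tested if its mean log2 intensity exceeded the 40th percentile (an intensity of 31.1), which left 13647. Treatment and genotype were fitted together in limma 3.58.1 (R 4.3.3), with an intensity trend in eBayes and Benjamini-Hochberg adjustment at 0.05 over all tested probe sets. The fit has 1 residual degree of freedom and a median of 171 prior degrees of freedom, so the error is mostly that of probe sets of like intensity. Single comparisons were counted at a 2-fold change.

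Genes were named through the platform annotation, updated by gene identifier through RefSeq (TAIR10.1). It gave 1 gene for 13513 probe sets, several for 503, and did not list 8730. Every member is described. The other named genes come from lists, or from family names and positions beside a member. The members and lists were chosen with earlier results of these data known. WRKY22, AT1G76640 and the test that left out only probe sets at the floor on all arrays were singled out after values were seen. Sequences were not used here.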

Additional observations from a re-analysis of the deposited data

How the results depend on the processing

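The rise of CML38 was called under all alternatives that tested it except the fit with no filter at all (adjusted p from 1.70e-13 to 0.133). That fit takes in 5116 probe sets at the floor on all arrays, which have no variance. Limma then called 0 of all 22746 probe sets with ABA or by genotype, and so 0 members. At an unadjusted p under 0.05, 2 members were higher and 1 lower with ABA, and 1 was lower in gpa1. In the same fit 1 member, CML30, was 2-fold lower with ABA in gpa1, against 4.63% of all. The gpa1 response was 2-fold below WS for 1 member, against 1.39%. An alternative added after seeing the data left out only the probe sets at the floor on all arrays. It called 3 members higher with ABA (CML37, CML38 and CML23), against 13.9% of its probe sets, and 2 lower (CML42 and CML30), against 21.7%. Again 1 member was 2-fold lower with ABA in gpa1, against 5.98%, and 1 had the gpa1 response 2-fold below WS, against 1.80%. With the filter at the 60th percentile CML38, CML23 and CML43 were no longer tested. The counts of members called higher with ABA and lower in gpa1 (also 0 at an unadjusted p), 2-fold higher with ABA in WS or in gpa1, and 2-fold lower in gpa1 after ABA were then 0. In that order the shares of all tested probe sets were 19.9%, 1.75%, 9.22%, 8.46% and 0.659%. The members behind the main counts had left the test, so a count of 0 says nothing on them.

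With the floor at the 45th percentile 1 member was called higher with ABA, 1 was 2-fold higher in WS, 0 were called lower in gpa1 (0 at an unadjusted p) and 0 were 2-fold lower in gpa1 after ABA, against 16.7%, 7.69%, 1.37% and 0.718% of all tested probe sets. With median centring 0 members were 2-fold lower with ABA in WS, against 4.67%. Without the intensity trend 2 were called lower with ABA, against 22.5%, and the shares of all tested probe sets called higher and lower in gpa1 were 0.308% and 0.484%. Further, with genotype alone in the model 0 were lower in gpa1 (0 unadjusted). That fit leaves the ABA response in the error, and its share over all tested probe sets is not given here. With 1 array left out and the factor alone in the model, the ABA change of CML38 was 2.08 in every fit. That of CML23 then ran from 0.83 to 1.26, and that of CML42 from -0.98 to -0.54. The genotype difference of CML43 ran from -1.27 to -0.62.

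Signs turned only for values that had not passed. The genotype difference of CML38 was 0.0099 under median centring and 0.014 under quantile normalization, and that of CML23 was -0.13 under the higher floor. With 1 array left out it ran from -1.04 to 1.04 for CML38, from -0.61 to 0.78 for CML23 (-0.26 without gpa1 ABA) and from -0.69 to 0.33 for CML42 (0.071 without gpa1 ABA), fits in which the ABA response enters the genotype contrast by construction. The ABA change of ATMPK8 ran from -0.085 to 0.15. Choosing members by the platform's own symbols changed none of the counts. The main fit compares the treatments within each genotype, so its averaged ABA change already pairs the arrays by genotype, with 1 pair each. Low signal limits CML23, CML30, CML37, CML38 and CML43, each within a few intensity units of the floor or below it on at least 1 array.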
